A study of Mus musculus with 2 samples.

Results

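Glucuronosyltransferases and sulfotransferases that lie together on chromosome 5 were examined in epididymal fat. They are 8 of the 22180 genes named on the arrays: Ugt2b34, Ugt2b1, Ugt2b35, Ugt2b36, Ugt2b5, Ugt2a3, Sult1d1 and Sult1e1. The genes were chosen from the difference between these same arrays, together with their position, so their differences are given as a description. Each gene had 1 probe set that named it and no other gene. Male A/J mice were compared with male A/J-12SM mice, a consomic strain with the A/J genome apart from chromosome 12, which comes from SM/J. Chromosome 5 is therefore of A/J origin in both strains by design. Mice of both strains ate standard chow up to 6 weeks of age and a high-fat diet for the next 7 weeks, and were killed after a fast of 4 h. The RNA of 3 mice per strain was pooled on 1 array, so the spread between mice was not measured and no difference below has an error, a p-value or a test.

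UDP-glucuronosyltransferases (UGTs) are membrane enzymes of the endoplasmic reticulum that join glucuronic acid to steroids, bile acids and drugs. Cytosolic sulfotransferases (SULTs) join a sulfate group to the same kinds of molecule. Either group makes the substrate more soluble and usually inactive, and the liver is the main site of both reactions. SULT1E1, the estrogen sulfotransferase, inactivates estradiol and estrone. In male mice it is known from the Leydig cells of the testis and from epididymal fat.

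The members span 702 kb, from the start of Ugt2b34 (chr5:86889770-86906937, GRCm38.p6) to the end of Sult1e1 (chr5:87575968-87591611). Between them lie Ugt2b1 (chr5:86916639-86926503), Ugt2b35 (chr5:87000860-87013274), Ugt2b36 (chr5:87065927-87092555), Ugt2b5 (chr5:87124946-87140340), Ugt2a3 (chr5:87324972-87337195) and Sult1d1 (chr5:87554650-87569006). All are read from the minus strand except Ugt2b35. Sult1d1 and Sult1e1 are neighbours with 6961 bases between them. Ugt2b37, Ugt2b38 and Sult1b1 lie among the members and were also measured. Ugt2a1 and Ugt2a2 share a probe set that named both, which was not used.

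The promoters are shown for a short motif that those of the Ugt2b genes share and that of Sult1e1 lacks. The 100 bases before the annotated start are printed 5′ to 3′ on the strand of the gene, from RefSeq on GRCm38.p6, for the members and for Ugt2b37 and Ugt2b38. Capitals mark the motif GTTANNNNNTAAC, which reads the same on both strands, or the closest match to it with 1 mismatch among its 8 fixed bases. It was taken from letters that the Ugt2b promoters share, after these promoters were seen, and no factor is assigned to it.
Ugt2b34: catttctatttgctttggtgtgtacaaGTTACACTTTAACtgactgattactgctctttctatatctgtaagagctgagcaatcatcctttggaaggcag
Ugt2b1: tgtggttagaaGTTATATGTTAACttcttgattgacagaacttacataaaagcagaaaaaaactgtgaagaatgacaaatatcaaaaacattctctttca
Ugt2b35: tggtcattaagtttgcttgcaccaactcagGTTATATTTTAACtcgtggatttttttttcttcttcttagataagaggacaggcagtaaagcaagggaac
Ugt2b36: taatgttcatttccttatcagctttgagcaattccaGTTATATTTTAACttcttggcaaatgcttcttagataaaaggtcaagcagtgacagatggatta
Ugt2b5: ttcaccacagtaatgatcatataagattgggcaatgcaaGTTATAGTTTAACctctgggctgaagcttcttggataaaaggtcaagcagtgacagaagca
Ugt2b37: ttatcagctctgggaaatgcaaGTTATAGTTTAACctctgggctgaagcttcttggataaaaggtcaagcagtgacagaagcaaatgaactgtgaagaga
Ugt2a3: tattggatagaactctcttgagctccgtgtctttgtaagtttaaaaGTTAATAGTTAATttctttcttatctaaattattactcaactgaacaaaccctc
Ugt2b38: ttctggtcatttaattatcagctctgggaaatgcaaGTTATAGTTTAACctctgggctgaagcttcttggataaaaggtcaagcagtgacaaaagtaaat
Sult1d1: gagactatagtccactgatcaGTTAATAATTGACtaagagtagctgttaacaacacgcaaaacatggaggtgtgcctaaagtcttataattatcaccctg
Sult1e1: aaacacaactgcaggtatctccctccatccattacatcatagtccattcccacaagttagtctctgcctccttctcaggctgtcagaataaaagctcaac

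An exact match lay between 49 and 89 bases before the start in Ugt2b34, Ugt2b1, Ugt2b35, Ugt2b36, Ugt2b5, Ugt2b37 and Ugt2b38. Ugt2a3 and Sult1d1 had a match with 1 mismatch, and Sult1e1 and Sult1b1 had neither in the 300 bases around the start. Of all 32851 promoters of that length, 109 (0.332%) held an exact match and 1856 (5.65%) a match with at most 1 mismatch. Matches are a description of the letters and not of binding.

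Of the 8 genes, 7 had more signal in A/J-12SM fat and Sult1e1 had less. Their levels, as RMA values on the log2 scale, and the differences, A/J-12SM minus A/J, follow in the order of the chromosome. Ugt2b34 was at 3.91 in the A/J pool and at 4.93 in the A/J-12SM pool, a difference of 1.03 or 2.04-fold. Ugt2b1, whose rat counterpart glucuronidates bisphenol A, went from 4.18 to 5.94, a difference of 1.76 or 3.40-fold. On the A/J-12SM array these 2 genes alone among the 7 were above the median probe set, which was at 4.43.

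Ugt2b35 had levels of 1.74 and 2.51, and its difference of 0.77 (1.70-fold) was the smallest of the 7. Ugt2b36 had levels of 1.71 and 3.54, a difference of 1.83 or 3.55-fold. Ugt2b5 had levels of 1.52 and 3.86, and its difference of 2.34 (5.07-fold) was the largest of the 7. Ugt2a3, whose human counterpart glucuronidates bile acids, had levels of 2.47 and 4.40, a difference of 1.93 or 3.80-fold. Sult1d1, which in mice sulfates catecholamines such as dopamine, had levels of 1.92 and 3.40, a difference of 1.48 or 2.79-fold. In these bulk samples, fewer cells of a type and less RNA per cell cannot be told apart.

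All 7 genes were below the median probe set on the A/J array, which was at 4.40. No detection call was available, so a level of that size cannot be separated from background and the fold is uncertain. Over the 6 Ugt2 genes the median difference was 1.80, with an SD between genes of 0.59. The median over all named genes was 0.03. The Ugt2b genes are close paralogs, which makes the level of each single copy uncertain, and cross-hybridization between them was not tested.

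**Figure D1:**
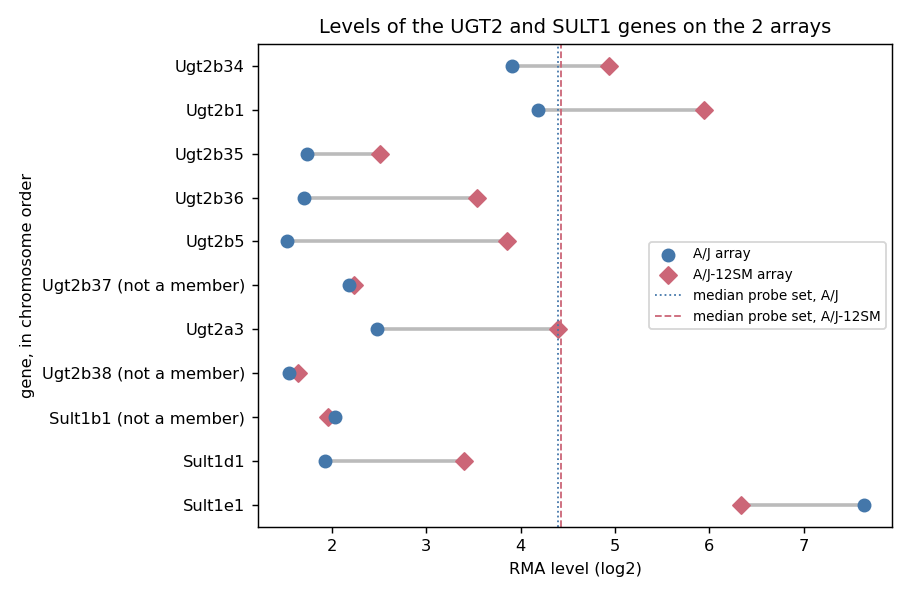
RMA levels (log2, x axis) of the 8 genes and of 3 genes between them (y axis, in chromosome order). Circles are the A/J array, diamonds the A/J-12SM array, and vertical lines the median probe set of each array. The diamonds of 7 genes lie to the right of their circles, and that of Sult1e1 lies to the left, at 6.33 against 7.64.

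Sult1e1 differed in the opposite direction. Its level was 7.64 in the A/J pool and 6.33 in the A/J-12SM pool, a difference of -1.30, or 2.47-fold more signal in A/J. Both levels were above the median probe set. Sult1e1 was the only member that reached 6 on either array. Its difference lay 3.07 below the median of the other members (1.76) and 2.78 below that of its neighbour Sult1d1. This contrast was part of how the genes were chosen.

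Against the whole array, 634 genes (2.86%) differed by more than 0.75 upward and 949 (4.28%) by more than 0.75 downward. All 8 members were past this limit, 7 upward and 1 downward, which restates their selection. Ugt2b35 lay just above it at 0.77. Among the 9709 genes with mean levels between those of the dimmest and the brightest of the 7 higher members, 3.71% were past 0.75 upward and 5.77% past it downward. The limit is the one used in the study to select genes. Counted from the highest difference of the 22180 genes, Ugt2b5 held rank 21, Ugt2a3 rank 48, Ugt2b36 rank 56, Ugt2b1 rank 59 and Sult1d1 rank 92. Ugt2b34 (rank 232) and Ugt2b35 (rank 584) followed. Sult1e1 held rank 292 from the lowest.

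To take account of level, each member was also set beside genes of a mean level within 0.5 of its own. Among 2854 such genes, Ugt2b5 alone reached its own difference. Including the member itself, 3 of 2757 genes reached that of Ugt2b36, 3 of 3625 that of Ugt2a3 and 6 of 2812 that of Sult1d1. Ugt2b1 was reached by 16 of 3023 genes and Ugt2b34 by 54 of 3562. The largest share was that of Ugt2b35, reached by 66 of 2169 genes (3.04%). In the downward direction, 23 of 2644 genes (0.87%) reached Sult1e1. The members were chosen for their differences, so these counts restate the selection and are not tests.

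**Figure D2:**
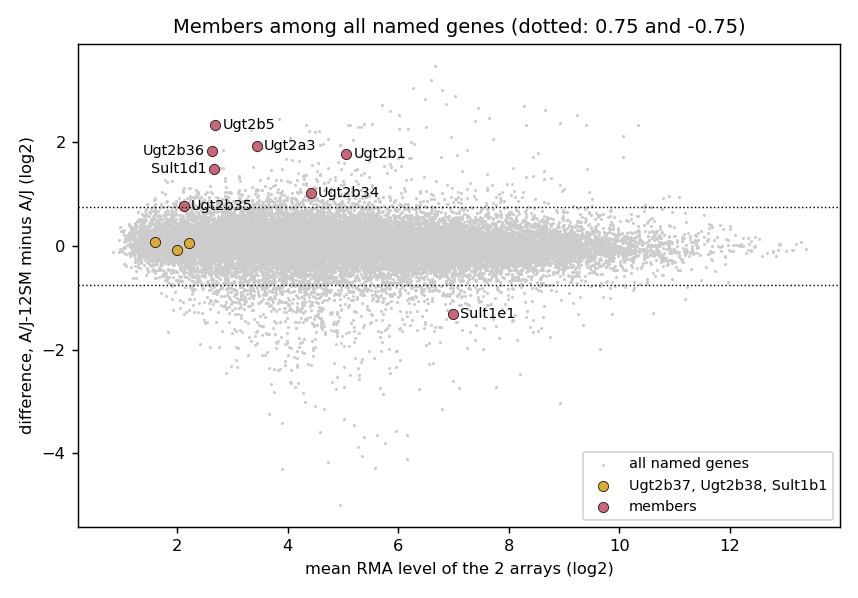
Difference (A/J-12SM minus A/J, log2, y axis) against the mean level of the arrays (log2, x axis). Grey points are all named genes, red points the members, yellow points Ugt2b37, Ugt2b38 and Sult1b1, and dotted lines 0.75 and -0.75. Upward members sit at mean levels from 2.12 to 5.06, and Sult1e1 is the red point below the lower line.

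Genes among and beside the members stayed within 0.75 of 0, with 3 exceptions in the flanks. Ugt2b37 had levels of 2.18 in A/J and 2.24 in A/J-12SM, a difference of 0.06. Ugt2b38 had levels of 1.55 and 1.64, a difference of 0.09. Sult1b1, a sulfotransferase of thyroid hormones and small phenols, had levels of 2.03 and 1.95, a difference of -0.07. All 3 were far below the median probe set on both arrays, and such levels cannot be separated from background.

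Over the 250 bases before the start, which include the motif, the promoters were alike to different degrees. Ugt2b37 and Ugt2b38 were 85.2% identical, and Ugt2b5 was 81.5% identical to Ugt2b38 and 73.0% to Ugt2b37. Each of these promoters holds the same 13 letters, GTTATAGTTTAAC, at the motif. Ugt2b36 and Ugt2b5 were 60.2% identical, and Ugt2b34 and Ugt2b1 53.4%, close to the 52.4% between Ugt2b5 and Sult1e1. These shares are not set against the differences, for which the members were chosen. Elsewhere in the genome, 51 measured genes held the exact motif, and 4 of them (7.84%) differed by more than 0.75 upward, with a median difference of 0.10. Of 16932 measured genes without it, 456 (2.69%) did so. The share with the motif rests on 4 genes, and the motif was drawn from promoters of the chosen genes. Its bearing on the differences was not tested.

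**Figure D3:**
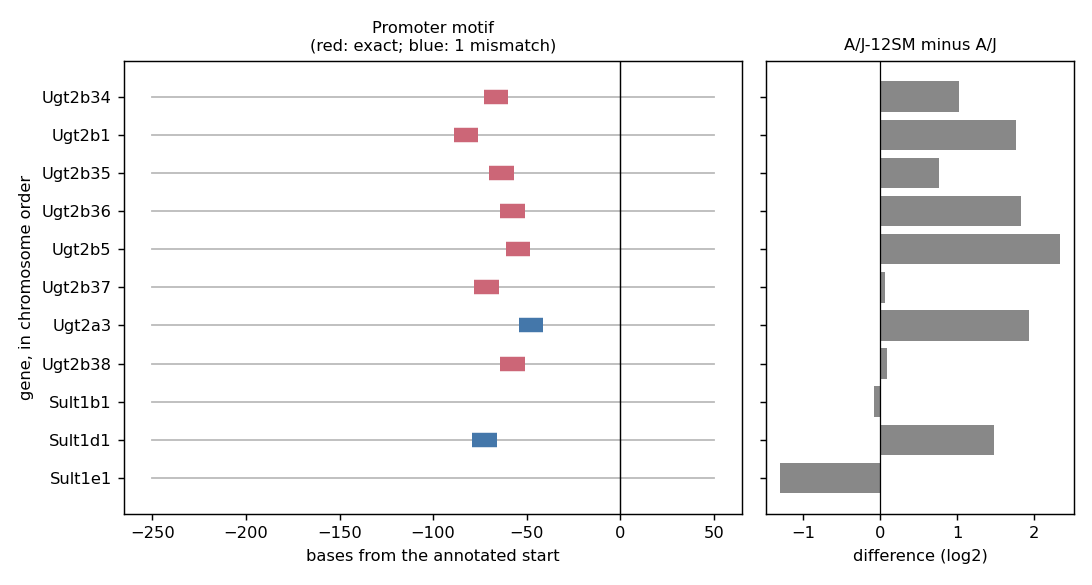
Left, position of the motif in bases from the annotated start (x axis) for each gene (y axis), with exact matches in red and matches with 1 mismatch in blue. Right, the difference of the same gene (A/J-12SM minus A/J, log2). Ugt2b37 and Ugt2b38 hold an exact match at differences of 0.06 and 0.09.

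In the flanks, 1 Mb on each side, 34 named genes had a median difference of 0.01, and none was above 0.75. The nearest neighbours before Ugt2b34 were Ythdc1 (-0.05), a reader of methylated adenosine in RNA, and the protease gene Tmprss11e (0.33). Those after Sult1e1 were Mir3969 (0.02) and the milk casein gene Csn1s1 (0.44). Below -0.75 were 3 flanking genes, named after their values were seen. Cabs1, a calcium-binding protein of spermatids, had levels of 5.17 in A/J and 3.16 in A/J-12SM. Prr27 had levels of 4.77 and 2.80, and Jchain, the joining chain of secreted antibodies, 4.79 and 3.57.

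**Figure D4:**
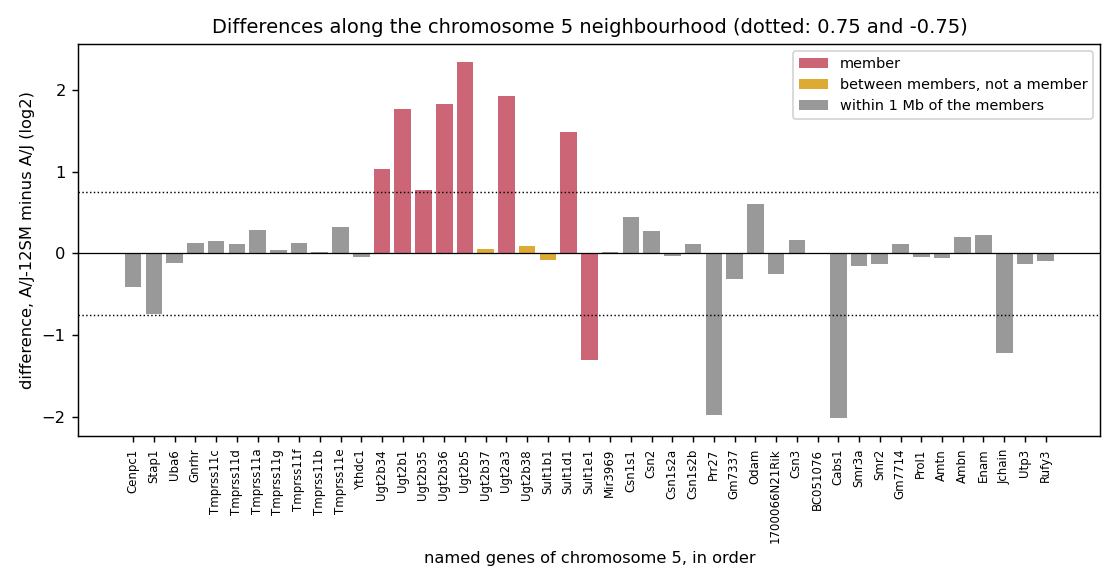
Difference (A/J-12SM minus A/J, log2, y axis) of named genes of chromosome 5 in their order (x axis), from 1 Mb before to 1 Mb after the members. Red bars are members, yellow bars genes between them and grey bars flanking genes, and dotted lines are 0.75 and -0.75. All bars above the upper line are members, and below the lower line Sult1e1 is followed by Prr27, Cabs1 and Jchain.

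Most other genes of conjugation stayed within 0.75, as did most of all named genes, of which 2.86% were above and 4.28% below. Of 19 other sulfotransferase genes, 2 were above 0.75 and none was below -0.75, with a median of 0.00. Sult1a1, the main phenol sulfotransferase, had levels of 7.36 in A/J and 8.56 in A/J-12SM, which is 2.29-fold. Sult2a8, a bile acid sulfotransferase of mouse liver named after its value was seen, had levels of 3.12 and 4.81, a difference of 1.68. The sulfotransferases thus lay on both sides, with Sult1e1 at -1.30 and Sult1d1, Sult1a1 and Sult2a8 at 1.48, 1.20 and 1.68. Of 3 genes of the UGT3 and UGT8 families none was past 0.75. Ugt8a, which makes galactosylceramide, was at -0.49 and Ugt3a2 at 0.43. Genes of the UGT1 locus had only probe sets that named several genes.

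Among 12 genes that make or carry the co-substrates, UDP-glucuronic acid and the sulfate donor PAPS, 1 was above 0.75 and none below -0.75, with a median of 0.02. Ugdh, which makes UDP-glucuronic acid, had levels of 9.48 and 9.54, and Papss2, which makes PAPS, 9.90 and 10.39. The gene above the limit was the sulfate transporter gene Slc26a1, named after its value was seen, with levels of 3.60 and 4.35. None of 5 measured genes that remove sulfate or glucuronide was past 0.75. The steroid sulfatase gene Sts was listed too, but no probe set named it alone, so it was not measured. Gusb, the lysosomal beta-glucuronidase, was at -0.49 and the arylsulfatase gene Arsb at 0.01. These counts stand beside 7.14% of all named genes past 0.75 in either direction.

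Of 20 genes that make, inactivate or bind sex steroids, 4 were above 0.75 and 1 was below -0.75, with a median of 0.05. Of all named genes, 2.86% were above and 4.28% below. The gene of these 20 below -0.75 was Hsd17b7 (6.73 against 5.96), an enzyme of cholesterol and estradiol synthesis. The 4 higher genes, named after their values were seen, were Hsd17b6 (2.21), which oxidizes androgen metabolites, Hsd17b2 (1.49), which oxidizes estradiol and testosterone, Hsd17b13 (1.33), a lipid droplet protein of liver, and Akr1c14 (1.11), a 3-alpha-hydroxysteroid dehydrogenase. Esr1, the main estrogen receptor of fat and also named after its value was seen, had levels of 7.31 and 7.17, a difference of -0.14.

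Markers of other cell types differed alongside the members. The counts below stand beside 2.86% of all named genes above 0.75 and 4.28% below -0.75. All 12 measured adipocyte markers were above the median probe set on both arrays, as the label of the tissue states. Their median difference was 0.30, with 2 above 0.75 (Slc2a4 at 1.03 and Adipoq at 0.93) and none below -0.75. Of 16 hepatocyte markers, 15 were above 0.75 and none below -0.75, with a median of 2.16 and a range from 0.66 to 3.20. Cps1, which feeds ammonia into the urea cycle, had levels of 4.99 and 8.19, and Fgg, a fibrinogen chain, 5.05 and 7.89. The log2 of the summed linear level of these markers was 10.53 in A/J and 12.67 in A/J-12SM. On the A/J array 4 of the 16 were below the median probe set, and on the A/J-12SM array none was. The higher hepatocyte markers and the higher UGT2 genes and Sult1d1 stood on the same array, and the part of hepatocyte RNA in these differences was not tested.

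Leydig cell and male germ cell markers of the testis were lower together with Sult1e1, while Sertoli cell markers went both ways. Of 5 measured Leydig cell markers, 4 were below -0.75 and none above 0.75, with a median of -1.10. Of all named genes, 4.28% were below -0.75 and 2.86% above 0.75. Cyp11a1 was taken from the brighter of its 2 probe sets, and with probe sets averaged the median was -1.05. Cyp17a1, an enzyme of androgen synthesis, had levels of 7.73 in A/J and 3.44 in A/J-12SM. The log2 of the summed level of the Leydig markers was 8.41 and 6.12, and 4 of the 5 were below the median probe set on the A/J-12SM array, where Sult1e1 was at 6.33. Of 14 male germ cell markers 13 were below -0.75 (median -2.86), with summed levels of 12.23 and 11.65. Odf1, a sperm tail protein at 11.71 and 11.58, made up most of these sums, and the other 13 genes summed to 10.53 in A/J and 7.34 in A/J-12SM. Of 6 Sertoli cell markers 3 were higher and 3 lower in A/J-12SM (median 0.03), and 1 was below -0.75 (Cldn11, 6.88 against 5.24). The markers Insl3 and Lhcgr of Leydig cells had no probe set that named them alone. The part of testis RNA in the difference of Sult1e1 was not tested. Markers of other tissues and cells were mostly within 0.75, as were most of all named genes, of which 53.6% were higher in A/J-12SM. Of 10 markers of the epididymis 1 was below -0.75, as was 1 of 6 of the kidney tubule, and none of 6 gut markers was past 0.75. All 7 mesothelial markers were higher in A/J-12SM, 2 of them above 0.75 (median 0.41, Upk1b 1.17). All 7 macrophage markers were lower, 1 of them below -0.75 (median -0.37, Fcgr1 -1.81).

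**Figure D5:**
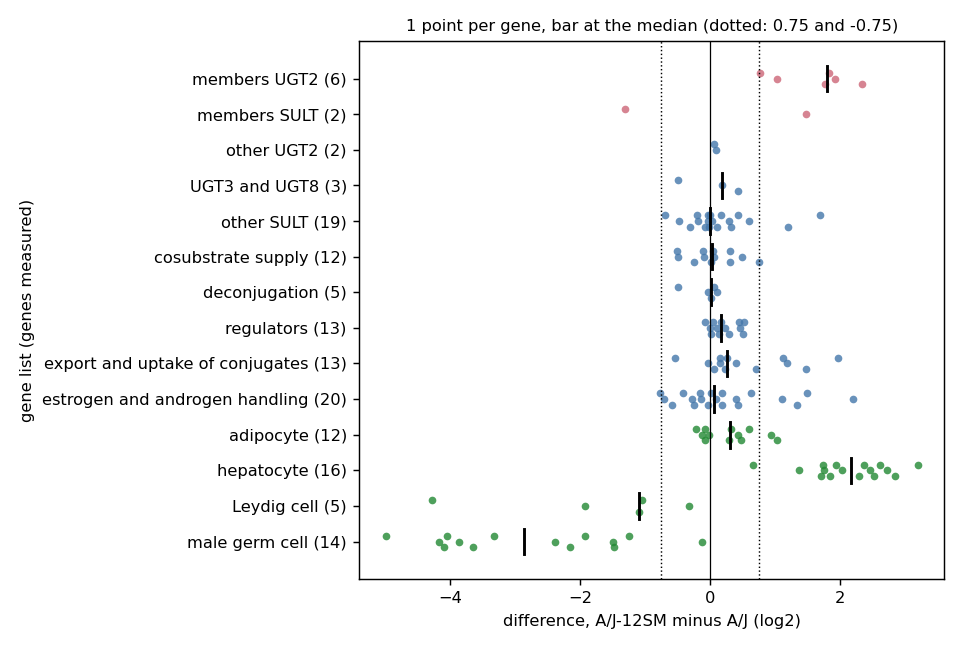
Difference of each gene (A/J-12SM minus A/J, log2, x axis) by list (y axis, genes measured in brackets). Members are red, other conjugation and steroid genes blue and cell type markers green, black bars are medians of lists of 3 or more genes, and dotted lines are 0.75 and -0.75. The red UGT2 points overlap hepatocyte points (median 2.16), and also points of the other SULT, transporter, steroid and adipocyte lists. Sult1e1 lies among Leydig cell points (median -1.10) and male germ cell points.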

How the data were processed

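RNA of epididymal fat was measured on 2 Affymetrix Mouse Gene ST 2.0 arrays. The authors ran RMA-sketch normalization (Affymetrix Expression Console, version 1.3.0) and deposited log2 levels per probe set, 41345 in all, with 0 missing values. RMA equalizes the distributions of arrays, so a shift shared by most genes would be removed. The genome build and probe annotation behind the values are not given in the sources used here, and the depth of signal over background is unknown without a detection call. The small number of arrays limits the precision.

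Probe sets were named through the platform annotation, with symbols updated by gene identifier. Those naming 1 gene (23521) were kept, and a gene with several (1082 of 22180) took its values from the brightest of them on average. Positions and promoters came from RefSeq (GRCm38.p6), with 250 bases before and 50 after each start. Both sample columns were used. A gene was counted where its difference passed 0.75, and no test was possible with 1 array per strain. The members, lists and alternatives were chosen with earlier results of these data known. Named genes were all members and other UGT2 genes, the nearest 2 neighbours on each side, neighbours past 0.75 at a level of at least 6 (there were none), and up to 4 genes per list, the largest differences past 0.75 at such a level, or failing these the 2 brightest. Genes outside this rule are marked. The alternatives were centring, loess (span 0.3), quantile scaling, averaging a gene's probe sets, limits of 0.5 and 1.0 in place of 0.75, levels of at least 5 or 6, means in place of medians, and flanks of 2 Mb. The code was tested on simulated data. Work was done in Python 3.11.15 with statsmodels 0.14.6, Biopython 1.88, matplotlib 3.10.9, NumPy 2.4.6, pandas 2.3.3 and SciPy 1.17.1.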

Additional observations from a re-analysis of the deposited data

How the results depend on the processing

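Under centring, loess, quantile scaling and the mean over probe sets, every member kept its direction, and no member moved by as much as 0.1. Ugt2b35 fell below 0.75 under centring (0.74), loess (0.69) and quantile scaling (0.71). These settings moved the median of all genes by less than 0.1. When genes under a level of 6 on both arrays were left out, 1 of the 8 members, Sult1e1, remained past 0.75, and with the limit at 5 there were 2, Sult1e1 and Ugt2b1, because the others are too dim to be counted. The count of other genes of conjugation, steroid handling, regulation and transport past 0.75 was 12, of them 4 transporters of conjugates. It was 21 at a threshold of 0.5, 2 with the level limit at 6 and 7 with it at 5. The mean over the Ugt2 genes was 1.61 in place of a median of 1.80, and Sult1e1 lay 2.90 below the mean of the other members (-2.90) in place of 3.07 below their median. No paired analysis was possible because each strain has 1 array. The low levels of 7 members on the A/J array limit the size of their differences, and none has an error.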

Other observations

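Of 13 transporters that take up or export conjugates, 4 were above 0.75 and none was below -0.75, beside 2.86% of all named genes above and 4.28% below. In all, 11 of the 13 were higher in A/J-12SM fat, beside 53.6% of all named genes, with a median of 0.26. The 4 genes, named after their values were seen, are known from the hepatocyte membrane. Slco1b2, an organic anion uptake transporter, had levels of 3.65 in A/J and 5.61 in A/J-12SM. Slc10a1, the bile acid uptake transporter NTCP, had levels of 4.52 and 6.00 and lies on the substituted chromosome 12. Slco1a1, another uptake transporter, was at 3.18 and 4.36, and Abcc2, the exporter of conjugates into bile, at 3.11 and 4.23. The members with the highest levels, Slco2b1 (-0.54) and the exporter gene Abcc1 (0.26), stayed within the limit.

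Of 13 factors known to act on UGT and SULT genes, none was past 0.75, beside 7.14% of all named genes, so that a count of 0 is near the background. Their median was 0.16, and 11 were higher in A/J-12SM. Nfe2l2, a regulator of the response to oxidants, was at -0.08 and the retinoid receptor gene Rxra at 0.22.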
